A study of Mus musculus with 8 samples.

Results

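The genes described here make and modify fatty acids, and they were chosen by name: Fasn, Acaca, Acly, Scd1, Scd2, Elovl6, Srebf1, Fads1 and Fads2. Every probe set whose only gene symbol in the platform annotation was one of these 9 genes was taken, which gave 23 of the 34945 probe sets that name 1 gene, or 9 of 18193 genes. RNA came from germinal centre (GC) B cells, which proliferate in follicles after meeting antigen and there diversify their antibodies, sorted from spleens of 8-week-old GFPMYC/C57BL6 knock-in mice 12 days after immunization with sheep red blood cells. GFPMYC is a fusion of green fluorescent protein with MYC, so the fluorescence of a cell reports the fusion protein. Cells that bound peanut agglutinin strongly and were high for CD95 were parted by GFP, giving 4 MYC-positive and 4 MYC-negative samples on 8 Affymetrix mouse arrays, and both fractions carry the same knock-in. Each positive sample is tied to 1 negative sample in its description, which gives 4 pairs, and the sources used here do not settle whether a pair is 1 mouse or a pool. The comparison addresses how the 2 fractions of the same germinal centre population differ.

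In the cytosol, ATP citrate lyase (Acly) splits citrate into acetyl-CoA, acetyl-CoA carboxylase 1 (Acaca) turns that into malonyl-CoA, and fatty acid synthase (Fasn) builds palmitate from it. Elovl6 elongates palmitate, the stearoyl-CoA desaturases Scd1 and Scd2 put the first double bond into saturated chains, and Fads1 and Fads2 add double bonds to polyunsaturated chains. Srebf1 encodes SREBP1, a membrane-held transcription factor that is released to switch on these enzymes. Dividing lymphocytes need fatty acids for new membranes, and MYC is known to promote lipid synthesis in several cell types.

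Promoter windows were looked at because SREBP1 acts through the sterol regulatory element and MYC through the E-box, both of which are short DNA motifs. RefSeq windows of GRCm38.p6, from 250 bases before a start site to 50 after it, were matched for 6 of the 9 genes, with 8 windows in all. Scd1, Scd2 and Fads1 had none in the table. The windows of Fasn (chr11:120824498-120824797, minus strand) and Acaca (chr11:84195188-84195487, plus strand) are shown because these genes were called higher in MYC-positive cells, and those of Acly (chr11:100527951-100528250, minus strand) and Srebf1 (chr11:60210422-60210721, minus strand, 1 of its 3 windows) because these were not. Capitals mark matches to any of 5 motifs on either strand: the E-box CACGTG, its variant CATGTG, the sterol regulatory element TCACNCCAC, the CCAAT box CCAAT and the GC box GGGCGG.
Fasn: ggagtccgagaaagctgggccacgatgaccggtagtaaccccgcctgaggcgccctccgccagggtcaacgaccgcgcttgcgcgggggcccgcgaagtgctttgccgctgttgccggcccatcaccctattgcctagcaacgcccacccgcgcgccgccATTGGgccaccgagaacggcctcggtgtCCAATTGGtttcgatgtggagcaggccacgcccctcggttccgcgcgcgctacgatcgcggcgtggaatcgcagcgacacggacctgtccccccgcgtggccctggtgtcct
Acaca: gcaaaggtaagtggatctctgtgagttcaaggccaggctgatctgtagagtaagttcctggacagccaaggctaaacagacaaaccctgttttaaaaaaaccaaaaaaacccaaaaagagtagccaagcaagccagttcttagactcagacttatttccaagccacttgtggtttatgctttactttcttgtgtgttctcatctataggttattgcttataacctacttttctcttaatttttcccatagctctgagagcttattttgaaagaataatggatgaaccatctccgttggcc
Acly: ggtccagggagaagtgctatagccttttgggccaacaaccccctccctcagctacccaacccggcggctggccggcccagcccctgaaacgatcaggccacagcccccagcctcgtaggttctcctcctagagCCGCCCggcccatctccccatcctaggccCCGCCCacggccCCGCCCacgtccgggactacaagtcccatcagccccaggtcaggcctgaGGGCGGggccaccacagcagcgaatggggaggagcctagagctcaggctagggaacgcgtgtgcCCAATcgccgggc
Srebf1: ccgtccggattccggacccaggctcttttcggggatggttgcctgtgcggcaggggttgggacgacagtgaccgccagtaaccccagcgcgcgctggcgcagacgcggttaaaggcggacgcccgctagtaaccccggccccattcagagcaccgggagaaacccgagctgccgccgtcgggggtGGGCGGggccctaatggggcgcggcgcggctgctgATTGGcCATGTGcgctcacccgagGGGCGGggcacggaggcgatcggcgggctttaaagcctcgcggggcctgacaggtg
The E-box CACGTG was in 0 of the 8 windows, against 7.15% of 32851 windows of all genes, and TCACNCCAC was in 0 of 8, against 1.24% of all windows. The variant CATGTG was in 1 of 8, the Srebf1 window shown, against 14.2% of all. CCAAT was in 4 of 8, against 37.4%, and GGGCGG was in 4 of 8, against 35.7%. The Fasn window held 3 CCAAT boxes in both orientations, 2 of which overlap, and the Acly window held 4 GC boxes and 1 CCAAT box. A window without a match says only that these letters are not in it, and a match is not evidence of binding.

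The arrays shared nearly the same trimmed mean signal, from 496.8 to 498, and between 34.7% and 42.6% of probe sets on an array had a signal above 100. Myc, the gene behind the sort, had a geometric mean signal of 663.0 in MYC-positive and 92.95 in MYC-negative samples (log2 difference 2.83, SE 0.27), which checks the labels. All 13 germinal centre B cell markers on the array that were looked at were above the filter level of 18.7 on at least 1 array, and their summed signal ran from 56954.8 to 71486.4 in MYC-positive and from 72707.4 to 93417.8 in MYC-negative samples, with 0 members called higher and 4 lower (Mybl1, Pax5, Cd22 and Fas). The myeloid and macrophage marker list had 9 of 16 tested members higher and 1 lower (Apoe) in MYC-positive samples, and its summed signal was 13304.5, 6116.5, 2300.5 and 4675.4 in the MYC-positive arrays of pairs 1 to 4, against 2350.8, 2297.6, 1710.8 and 1172.5 in the MYC-negative arrays. Of its called members Vcam1, Csf1r, Slc40a1, C1qa, C1qc and Cd163 had mean signals under the filter level in MYC-negative samples. These passed the filter only through their MYC-positive samples, so the count of 9 of 16 depends in part on the filter. Beside the B cell and macrophage lists, 3 of 7 plasma cell markers were called higher (Sdc1, Irf4 and Derl3), and the summed signal of that list ran from 31467.9 to 42502.4 in MYC-positive and from 22935.6 to 36714.5 in MYC-negative samples. Of its bright markers, Irf4 was at 9187.4 in MYC-positive and 3098.6 in MYC-negative samples. Jchain (14416.8 and 14218.7) and Mzb1 (7456.8 and 7433.5) hardly differed. Beside these marker counts, 11.0% of all tested genes were called higher and 10.9% lower. The T cell, red cell and platelet, adipocyte and stromal lists had between 2 and 5 tested members each. Of these, Thy1 and Lpl were called higher and Cd2, Cr2 and Pecam1 lower. Thy1 (14.54) and Lpl had mean signals under the filter level in MYC-negative samples, so they too passed the filter only through their MYC-positive samples. Lpl, the lipoprotein lipase gene, had a signal of 160.7 in MYC-positive and 2.79 in MYC-negative samples. Of the myeloid markers Itgam was under the filter level on every array.

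Fasn, Acaca and Fads1 were higher in MYC-positive than in MYC-negative GC B cells, while Acly, Elovl6, Scd1, Scd2, Fads2 and Srebf1 itself did not pass the test. The rise was 2.23-fold for Fasn and, by the brighter probe set of each gene, 1.91-fold for Acaca and 1.86-fold for Fads1. The other probe set was at a log2 difference of 0.23 for Acaca and -0.85 for Fads1, and neither was called. Of the 23 probe sets 22 were bright enough to be tested, and 3 of them (13.6%) were called higher at an adjusted p under 0.05 (limma, Benjamini-Hochberg over 22024 probe sets) and 0 lower. Over all probe sets 9.03% were called higher and 12.0% lower, 21.1% in all. At an unadjusted p under 0.05 there were 5 member probe sets higher and 0 lower. The share of all probe sets at that unadjusted level is not given here. This count and the later unadjusted counts of the lists therefore have no background beside them. With each gene taken by its brightest probe set, 3 of 9 genes (33.3%) were higher and 0 lower, against 11.0% and 10.9% of 11754 genes. The median log2 difference of the 9 genes was 0.46, against -0.06 for all genes tested. With the mean over all probe sets of each gene it was 0.02, against -0.14 for all genes, and after median centring it was 0.90, against 0.38. With that mean over probe sets 1 of the 9 genes (Fasn) was called higher, against 9.93% of all genes. The values depended on the scaling: the median over all genes shifted upward by 0.15 under quantile normalization and by 0.44 under median centring. In sorted fractions, fewer cells that express a gene and less of its RNA per cell cannot be told apart.

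**Figure D1:**
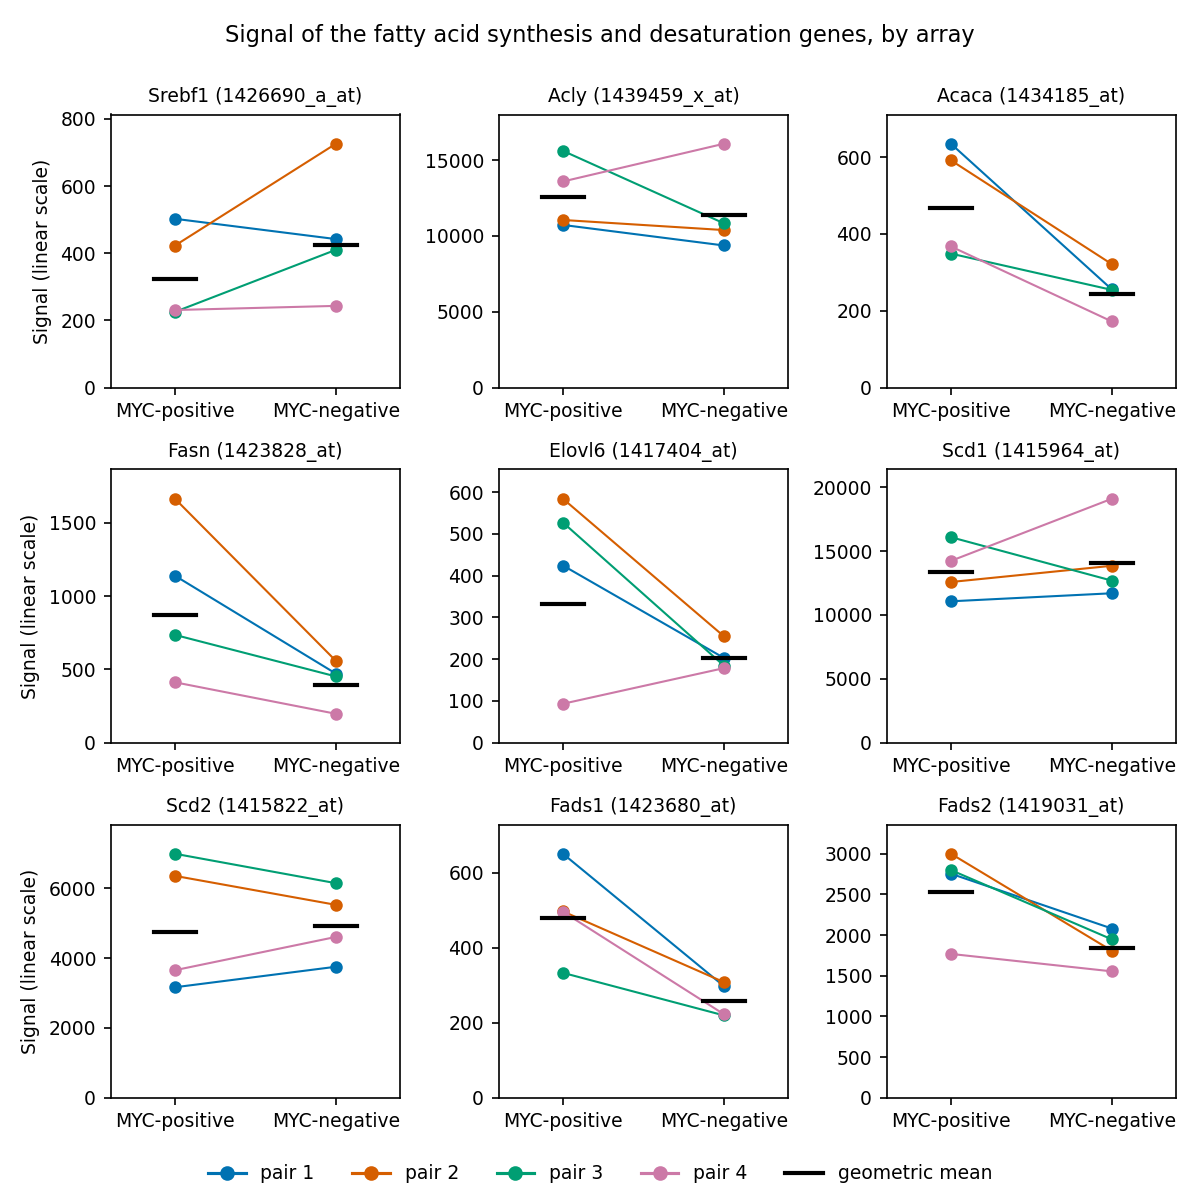
Signal on a linear axis of the brightest probe set of each of the 9 genes, in MYC-positive (left) and MYC-negative (right) samples, with a line for each of 4 pairs and a bar at the geometric mean. Fasn, Acaca, Fads1 and Fads2 are higher in the MYC-positive sample of every pair, while the lines of Srebf1, Acly, Scd1 and Scd2 run both ways.

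Srebf1 had signals of 502.8, 423.1, 225.7 and 231.2 in the MYC-positive samples of pairs 1 to 4, against 442.4, 726.2, 410.4 and 243.5 in the MYC-negative samples. The groups overlapped, and 3 of 4 pairs were lower in the MYC-positive sample. The log2 difference was -0.38 (SE 0.27, n = 4 pairs, adjusted p = 0.341, 95% interval from -0.99 to 0.23). Its single probe set does not separate the transcripts of the gene, which are known to differ in their first exon. Of 15 tested genes of SREBP activation and lipogenic transcription factors, 1 (6.67%) was higher and 0 lower, against 11.0% and 10.9% of all genes. At an unadjusted p under 0.05 there was 1 in each direction. The higher one was Scap, which encodes the escort protein of SREBP (log2 difference 1.01, SE 0.29, adjusted p = 0.0405). Its other tested probe set was at -1.55, and the mean over both was at -0.27 with adjusted p = 0.60. Insig1, which encodes a protein that holds SREBP back and is itself an SREBP target, had a geometric mean signal of 8916.8 in MYC-positive and 8684.2 in MYC-negative samples (0.04, SE 0.12, adjusted p = 0.86), and Srebf2, the cholesterol-side relative of Srebf1, was at 0.17 (SE 0.26, adjusted p = 0.67).

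Acly, the source of cytosolic acetyl-CoA, was bright on every array. Its brightest probe set (1439459_x_at) had signals of 10727.9, 11055.3, 15612.1 and 13593.5 in MYC-positive samples, against 9374.9, 10390.6, 10837.2 and 16079.6 in MYC-negative samples. The groups overlapped, with 3 of 4 pairs higher in the MYC-positive sample. The log2 difference was 0.14 (SE 0.14, adjusted p = 0.49, 95% interval from -0.17 to 0.45). The next brightest probe set (1451666_at) was at 0.22 (SE 0.15, adjusted p = 0.31), higher in 4 of 4 pairs. Both passed after median centring, at 0.58 and 0.66 with adjusted p = 0.040 and 0.030, a setting that raised the median of all genes by 0.44. Of the other 4 probe sets, 1425326_at was at 0.11, 1438389_x_at at -0.55 and 1446315_at at -0.91, with adjusted p from 0.20 to 0.84, and 1439445_x_at did not pass the filter, with signals from 1.33 to 8.34 in MYC-positive and from 0.56 to 4.02 in MYC-negative samples. Probe sets marked _x_at can bind transcripts of other genes, so these are uncertain.

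Acaca, which encodes the enzyme of the committed step, has 2 probe sets and they did not give the same result. The brighter (1434185_at) had signals of 634.6, 591.5, 348.8 and 367.4 in MYC-positive samples, against 255.7, 321.4, 254.4 and 172.3 in MYC-negative samples. Every MYC-positive value lay above every MYC-negative value. The log2 difference was 0.93 (SE 0.25, adjusted p = 0.031, n = 4 pairs). The dimmer (1427595_at) had signals of 41.3, 34.85, 36.36 and 64.61 in MYC-positive samples, against 22.2, 45.17, 53.75 and 33.39 in MYC-negative samples, not far above the filter level of 18.7. Its groups overlapped, with 2 pairs higher and 2 lower, and its difference was 0.23 (SE 0.46, adjusted p = 0.76, 95% interval from -0.82 to 1.28). The dim probe set lay below the bright one in the difference of each pair, by 0.14 to 1.25 on the log2 scale (mean -0.71, SD 0.52), and an exact sign-flip test over 4 pairs gave 2-sided p = 0.13, the smallest it can give. With the mean over both probe sets Acaca was at 0.58 and did not pass (adjusted p = 0.21). The call of the brighter one ended without pair 1 (0.81, adjusted p = 0.16) and without pair 2 (0.95, adjusted p = 0.12). Acacb, which encodes the mitochondrial isozyme that makes malonyl-CoA as a brake on fatty acid oxidation, was dim, at 40.14 in MYC-positive and 22.74 in MYC-negative samples (0.82, SE 0.57, adjusted p = 0.33).

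Fasn had signals of 1138.6, 1663.7, 735.1 and 411.8 in MYC-positive samples, against 471.2, 558.1, 451.7 and 197.0 in MYC-negative samples. Each MYC-positive sample was above its own partner, but the groups overlapped, because both samples of pair 4 were the lowest of their group. The log2 difference was 1.15 (SE 0.22, adjusted p = 0.010, 95% interval from 0.64 to 1.66), and it lay between 0.70 and 1.58 in single pairs. Fasn has 1 probe set on the array, so no other probe set bears on it. Its call ended without pair 1 (1.11, adjusted p = 0.077) and without pair 2 (1.01, adjusted p = 0.078). With the pairing left out it also ended, with the same difference and adjusted p = 0.11. Over the 14 alternatives tried its difference stayed between 1.01 and 1.59.

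**Figure D2:**
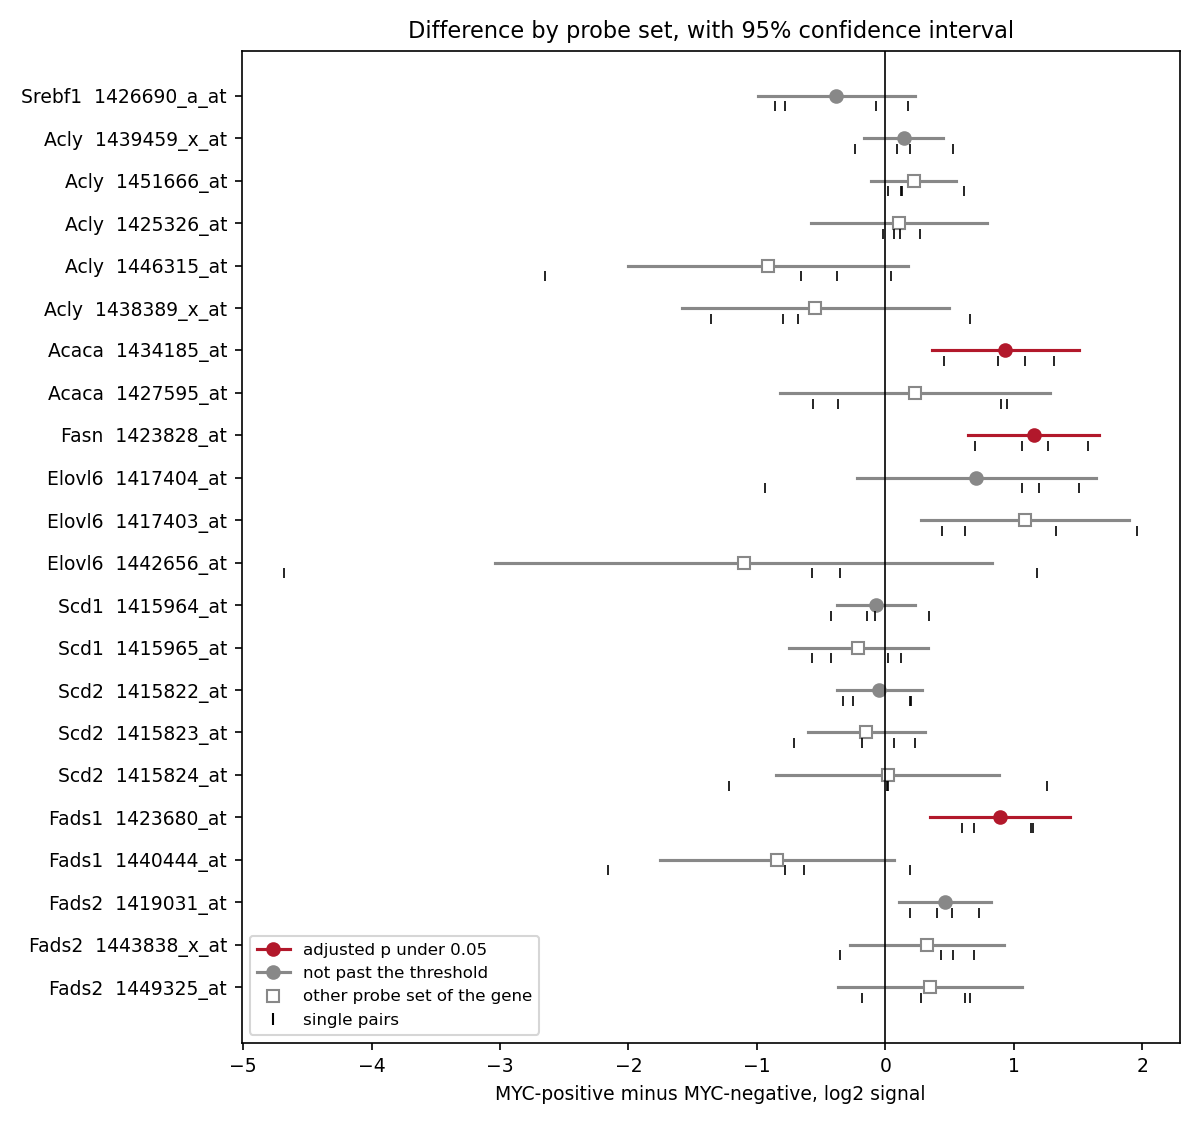
Log2 difference, MYC-positive minus MYC-negative, for each of the 22 tested probe sets, ordered by gene, with its 95% confidence interval (limma) and the 4 single-pair differences as ticks. The 3 called probe sets, of Acaca, Fasn and Fads1, lie near 1, while other probe sets of Acly, Elovl6 and Fads1 lie below 0.

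Elovl6, the elongase of palmitate, has 3 probe sets whose differences ran from -1.10 to 1.09, and none of them passed. The brightest (1417404_at) had signals of 424.4, 584.3, 527.4 and 93.18 in MYC-positive samples, against 203.1, 255.0, 184.7 and 178.5 in MYC-negative samples. Pairs 1 to 3 were higher by 1.06 to 1.51 and pair 4 was lower by 0.94 on the log2 scale, so the overall difference was 0.71 (SE 0.41, adjusted p = 0.25). Without pair 4 it was 1.26 with adjusted p = 0.0020. The second (1417403_at) had 151.4, 247.5, 148.9 and 282.2 in MYC-positive samples, against 98.25, 98.79, 109.8 and 72.31 in MYC-negative samples. These groups did not overlap, and here pair 4 had the widest gap, 1.96. The difference was 1.09 (SE 0.36, adjusted p = 0.060), and it passed in 4 alternatives, including quantile normalization (1.48, adjusted p = 0.014) and a stricter filter (adjusted p = 0.046). The third (1442656_at) was dim, at 20.14 in MYC-positive and 43.26 in MYC-negative samples, with single-pair differences from -4.68 to 1.18.

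Neither stearoyl-CoA desaturase passed the test. Scd1 (1415964_at) had signals of 11069.5, 12580.8, 16090.0 and 14235.4 in MYC-positive samples, against 11698.8, 13851.0, 12688.9 and 19099.1 in MYC-negative samples. The groups overlapped and 3 of 4 pairs were lower in the MYC-positive sample. The difference was -0.08 (SE 0.13, adjusted p = 0.73) with a 95% interval from -0.38 to 0.23, so at this scaling a rise as large as the 1.15 of Fasn lies outside it. After quantile normalization it was called lower at -0.24 (adjusted p = 0.049), and after median centring it was at 0.37. The second probe set of Scd1 was at -0.21 (adjusted p = 0.56). Scd2 (1415822_at) had signals of 3163.7, 6354.9, 6988.7 and 3652.7 in MYC-positive samples, against 3751.1, 5525.3, 6145.8 and 4605.5 in MYC-negative samples. The groups overlapped, and pairs 2 and 3 were high and pairs 1 and 4 low in both. The difference was -0.05 (SE 0.15, adjusted p = 0.85, 95% interval from -0.38 to 0.28), and the other 2 probe sets were at -0.15 and 0.02. The difference of Scd2 exceeded that of Scd1 by 0.03 on average (SD 0.24 over 4 pairs, exact 2-sided sign-flip p = 0.88, where 0.13 is the smallest possible). Scd3, a further desaturase of this family, was dim, at 15.95 in MYC-positive and 27.97 in MYC-negative samples.

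Fads1, the desaturase of the last step towards arachidonic acid, was among the 3 genes called. Its brighter probe set (1423680_at) had signals of 650.9, 497.1, 333.1 and 496.0 in MYC-positive samples, against 297.7, 308.4, 219.6 and 222.8 in MYC-negative samples. The groups did not overlap. The difference was 0.89 (SE 0.24, adjusted p = 0.031), between 0.60 and 1.15 in single pairs. The other probe set (1440444_at) pointed the opposite way, with 163.5, 206.4, 152.8 and 39.61 in MYC-positive samples, against 280.8, 180.6, 236.7 and 177.2 in MYC-negative samples. It was at -0.85 (SE 0.40, adjusted p = 0.17), lower in 3 of 4 pairs and lowest in pair 4. Their differences were 0.50 to 3.32 apart in each pair (mean 1.74, SD 1.20, exact 2-sided sign-flip p = 0.13, the smallest possible), and with the mean over both probe sets Fads1 was at 0.02 (adjusted p = 0.955). Its call also ended without pair 1 (0.81, adjusted p = 0.15), without pair 2 (0.96, adjusted p = 0.11) and without pair 3 (0.99, adjusted p = 0.056).

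Fads2, which encodes the first desaturase of the polyunsaturated pathway, was higher in the MYC-positive sample of every pair but did not pass. Its brightest probe set (1419031_at) had signals of 2754.0, 2999.2, 2798.6 and 1767.6 in MYC-positive samples, against 2080.1, 1807.0, 1947.0 and 1553.3 in MYC-negative samples. Pair 4 was the lowest in both groups, and its MYC-positive sample lay within the MYC-negative range. The difference was 0.46 (SE 0.16, adjusted p = 0.069, 95% interval before adjustment from 0.10 to 0.82). Without pair 4 it was 0.55 with adjusted p = 0.014, and after median centring 0.90 with adjusted p = 0.0052. The other 2 probe sets were at 0.32 and 0.35 (adjusted p = 0.41 and 0.47), each higher in 3 of 4 pairs. The difference of Fads1 exceeded that of Fads2 by 0.43 (SD 0.49 over 4 pairs, exact 2-sided sign-flip p = 0.25), and with 4 pairs this test cannot reach a p under 0.13.

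Of the 22 tested probe sets, 3 (13.6%) had groups that did not overlap, all with the MYC-positive samples above, and these were the called ones of Acaca and Fads1 and the second of Elovl6. Over all tested probe sets 9.38% lay wholly above and 12.4% wholly below. Without pair 1, 0 of the 22 member probe sets were called, and without pair 2 also 0, but the share called higher over all probe sets was then 1.99% and 3.32%, against 9.03% with all pairs. Without pair 4, 5 (22.7%) were called, all higher, against 12.2% called higher over all probe sets.

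The called genes did not differ equally among the pairs. Pair 3 had the smallest difference in Fasn (0.70), Acaca (0.46) and Fads1 (0.60). It was also the pair in which the summed signal of the myeloid and macrophage markers differed least, by 1.34-fold in the MYC-positive over the MYC-negative sample, against 5.66-fold in pair 1, 2.66-fold in pair 2 and 3.99-fold in pair 4. That sum is linear and weighted to bright markers, such as Mpeg1 (559.8 in the MYC-positive and 683.2 in the MYC-negative sample of pair 3). Single markers were mixed. Csf1r, C1qa, C1qb, Cd163 and Slc40a1 had their lowest log2 difference in pair 3, but Vcam1 (6.48) and Lyz2 (3.98) had their highest there. For Vcam1 and Lyz2 the MYC-positive signal of pair 3 was the lowest of its group (173.7 and 408.4). So was the MYC-negative signal of pair 3 (1.95 and 25.87), which for Vcam1 is near the floor of 1. Fasn, Acaca and Fads1 were still higher in the MYC-positive sample of pair 3. The order of the pairs was not shared throughout: Fasn differed most in pair 2. By their brightest probe sets, Elovl6 (1.51), Acly (0.53) and Scd1 (0.34) had their highest difference in pair 3. Other probe sets did not all follow. Elovl6 1417403_at (0.44) and Scd1 1415965_at (-0.57) had their lowest difference in pair 3, while Acly 1451666_at (0.61) had its highest there. The part of other cell types in these differences was not tested.

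**Figure D3:**
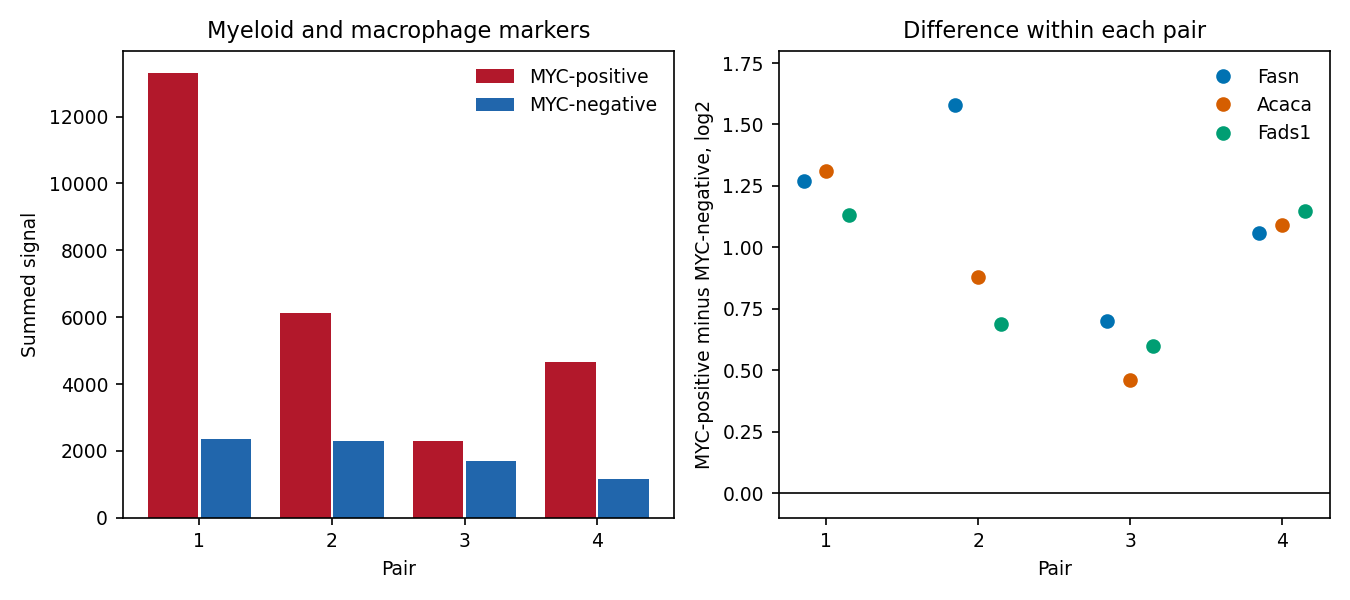
Left, summed signal of 20 myeloid and macrophage markers on a linear axis, with the MYC-positive bar left of the MYC-negative bar for each pair. Right, log2 difference of Fasn, Acaca (1434185_at) and Fads1 (1423680_at) in each pair. Pair 3 has the smallest gap in the summed marker signal (1.34-fold), though not in every single marker, and the smallest difference in each of the 3 genes, from 0.46 to 0.70.

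The profiles most like each member, by the root mean square distance between log2 values centred on each gene's own mean over the 8 arrays, were looked for among 11753 other genes. For Fasn they were Nol6 and Polr1a, at distances of 0.22 and 0.26, where the SD of Fasn itself was 0.95. For Acaca they were Lonp1 (0.08) and Clstn1 (0.13), and for Fads1 Txnl4a and Ndufv1 (both 0.12). For Scd2 the nearest was Acsl3, which encodes an acyl-CoA synthetase, at 0.185 (SD of Scd2 0.43), followed by Gnl3l, and for Fads2 they were Lonrf1 and 2310033P09Rik. Tyk2 and Zfp775 were nearest to Srebf1, Dhx37 and Dock3 to Elovl6, Sf1 and Vdac3 to Acly, and Ss18 and Psip1 to Scd1. Distances were shortest for Scd1 and Acly, the members that varied least over the arrays.

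Other genes of lipid metabolism were read from 8 lists with 120 genes, of which 104 were tested, each by its brightest probe set. Of these, 10 (9.62%) were higher and 8 (7.69%) lower in MYC-positive cells, against 11.0% higher and 10.9% lower over all genes, so the lists held no more calls than genes at large. The most strongly raised was Fabp5, which encodes a fatty acid binding protein, with a signal of 11833.1 in MYC-positive and 2774.3 in MYC-negative samples (log2 difference 2.09, SE 0.23, adjusted p = 0.0014). Among the called genes the strongest fall was in Cpt1a, whose product admits fatty acids to mitochondria for oxidation and is inhibited by malonyl-CoA. Cpt1a had a signal of 1122.2 in MYC-positive and 2653.6 in MYC-negative samples (-1.24, SE 0.21, adjusted p = 0.0062), and its other 2 tested probe sets were at -1.14 and -1.64.

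Of 8 tested genes of acetyl-CoA and NADPH supply, 1 was higher and 2 lower (median 0.34), and in a list this short each gene is 12.5%, so its shares say little beside the 11.0% and 10.9% of all genes. Pgd, an enzyme of the pentose phosphate pathway that makes NADPH, was higher (0.52, SE 0.13, adjusted p = 0.023), while Idh1, which makes cytosolic NADPH from isocitrate, was lower (-0.99, SE 0.16, adjusted p = 0.0052). Acss1, the mitochondrial acetyl-CoA synthetase, was lower at -0.73 (SE 0.13, adjusted p = 0.0085), but its other tested probe set was at 0.86. The citrate carrier gene Slc25a1 was higher in 4 of 4 pairs, by 0.19 to 1.82, without passing (mean 0.83, SE 0.32, adjusted p = 0.10). Of 13 genes of other fatty acid synthesis steps and their regulators 1 (7.69%) was higher and 0 lower, against 11.0% and 10.9% of all genes. The higher one was Mecr, the reductase of mitochondrial fatty acid synthesis (1.34, SE 0.25, adjusted p = 0.0084). At an unadjusted p under 0.05, 2 were higher and 1 lower.

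Of 8 tested genes of the elongation cycle 1 (12.5%) was higher and 0 lower, against 11.0% and 10.9% of all genes. The higher one was Hacd3, a dehydratase of that cycle (0.77, SE 0.17, adjusted p = 0.015). At an unadjusted p under 0.05, 3 were higher and 1 lower. Of 8 other desaturases and their electron donors 0 passed in either direction by limma, with 1 higher and 0 lower at an unadjusted p under 0.05. Of 12 genes of fatty acid activation, binding and uptake 2 (16.7%) were higher and 2 (16.7%) lower, against 11.0% and 10.9% of all genes. Fabp5 and Acot7, an acyl-CoA thioesterase gene (1.08, SE 0.23, adjusted p = 0.014), were higher. Acbd5 (-0.92, SE 0.16, adjusted p = 0.0061) and Acbd3 (-0.80, SE 0.24, adjusted p = 0.047), which encode acyl-CoA binding domain proteins, were lower.

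Of 21 genes that build glycerolipids and sphingolipids 1 (4.76%) was higher and 3 (14.3%) lower, against 11.0% and 10.9% of all genes, with a median of -0.12. Agpat5, an acyltransferase gene, was at 1.23 (SE 0.21, adjusted p = 0.0059), with 1 of its 2 other tested probe sets at -0.33. Gpat3, which encodes an enzyme of the first acylation (-1.19, SE 0.34, adjusted p = 0.038), Cept1, a phospholipid synthesis gene (-0.92, SE 0.15, adjusted p = 0.0055), and Lpin2, a phosphatidate phosphatase gene (-0.83, SE 0.14, adjusted p = 0.0055), were lower. Of 19 genes of fatty acid oxidation 3 (15.8%) were higher and 1 (5.26%), Cpt1a, lower, near the shares over all genes, with a median of 0.15. The 3 were Eci1 (0.83) and Decr1 (0.71), which handle double bonds during oxidation, and the electron carrier gene Etfb (0.56), with adjusted p from 0.021 to 0.046. The myeloid and macrophage markers were higher in the same samples, and their part in these differences was not tested.

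Leaving out a pair ended many of these 18 calls while their differences stayed near their size. Without pair 1, 4 of the 18 remained (Idh1, Fabp5, Acbd5 and Cpt1a) and 14 had adjusted p from 0.052 to 0.19, with differences 0.787 to 1.22 times those from all pairs. The share called over all probe sets was then 4.01%, against 21.1% with all pairs. Without pair 2, 8 remained and 10 ended, with adjusted p from 0.055 to 0.15 and differences 0.924 to 1.15 times those from all pairs, where 7.88% of all probe sets were called. Without pair 3, 5 ended (Acbd3, Gpat3, Eci1, Decr1 and Etfb), and without pair 4, 1 did (Etfb, adjusted p = 0.054). Over all probe sets 14.6% were called without pair 3 and 30.4% without pair 4. After median centring 6 of the 8 falls did not pass, those other than Idh1 and Cpt1a, with adjusted p from 0.080 to 0.27. In that setting 1152 of all probe sets were called lower, against 2649 in the main setting.

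**Figure D4:**
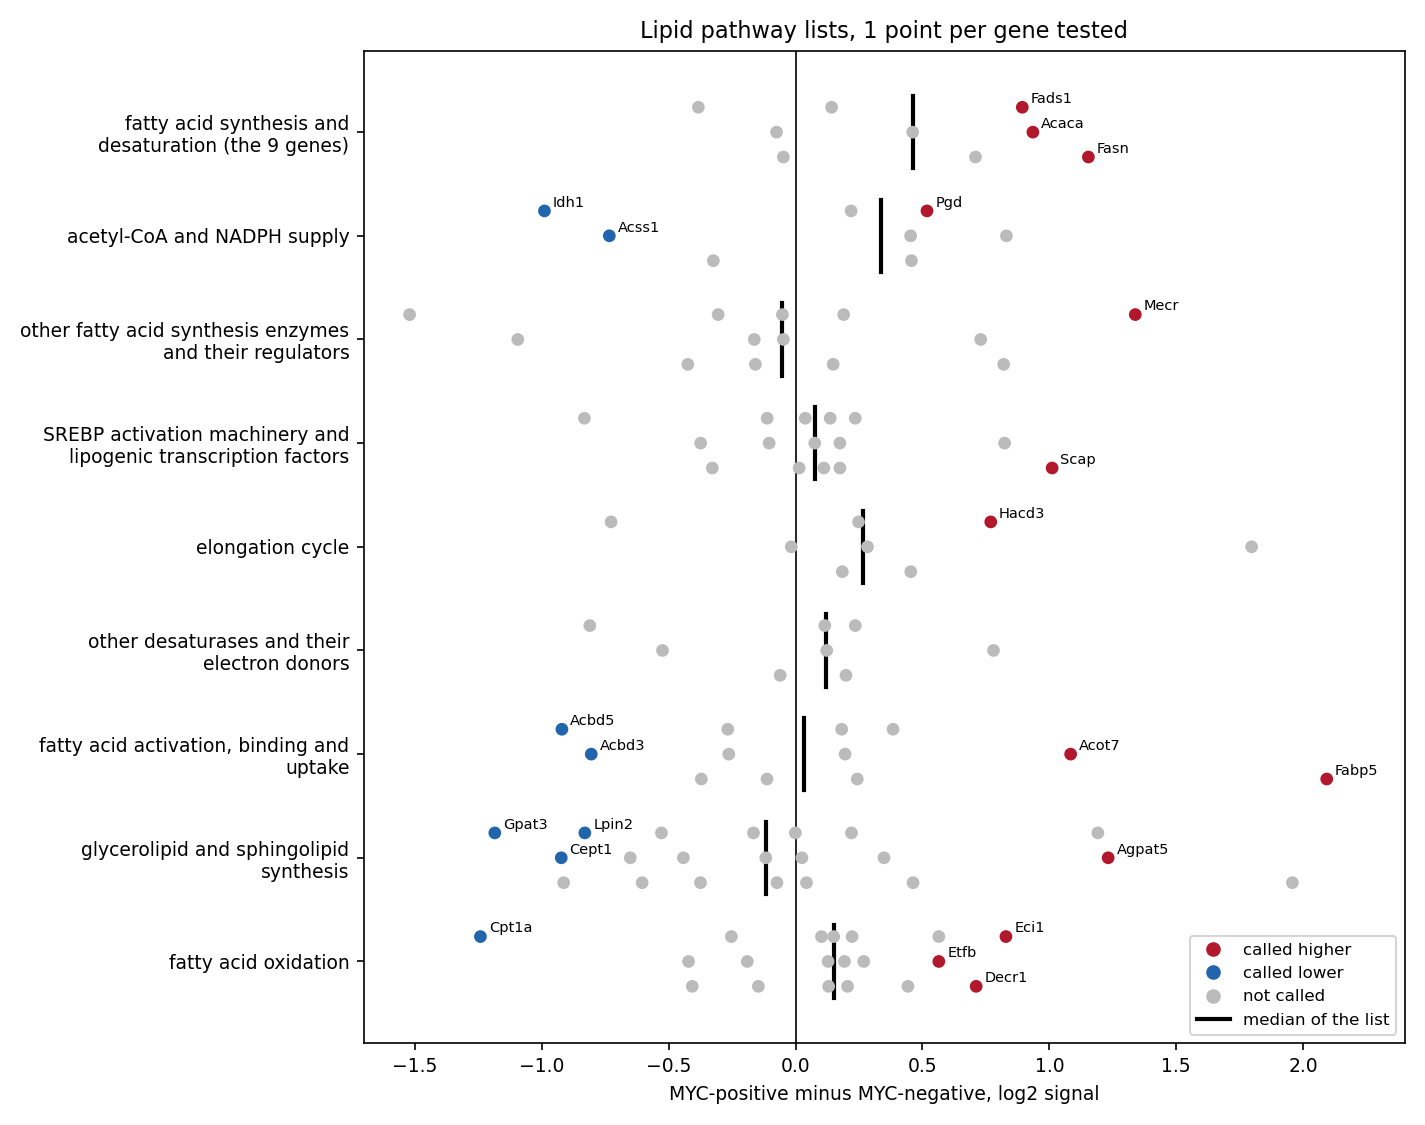
Log2 difference, MYC-positive minus MYC-negative, of every tested gene of the 9 studied and of 8 lipid pathway lists, 1 point per gene, with called genes named and a bar at the median of each list. The medians lie between -0.12 and 0.46, and Fabp5 (2.09) and Cpt1a (-1.24) are the outermost of the called genes.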

How the data were processed

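The authors deposited 1 linear signal intensity per probe set and array, made with MAS5 per the submitters' processing notes. No version or target value of MAS5 is given in the sources used here. Detection calls were not used. Amplification to cDNA started from 5 to 20 ng of RNA, per the labels' protocols. Among 45056 probe sets were 19 controls, and 34945 named 1 gene, 932 several and 9160 none here. A RefSeq table matched on gene identifier changed 0 symbols.

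A floor of 1 was applied to the signals before the log2 step. Probe sets were tested where they named 1 gene and their mean log2 value was above the 40th percentile of non-control probe sets, a signal of 18.7, which kept 22024. limma 3.58.1 in R 4.3.3 fitted fraction and pair together (lmFit, then eBayes, whose prior followed mean intensity), which left 3 residual degrees of freedom. Benjamini-Hochberg adjustment ran over all 22024 p-values. Differences are MYC-positive minus MYC-negative, 2-sided. The procedure was tested on simulated data. Paired samples' deviations from their group means correlated at 0.26, 0.17, 0.088 and 0.12 for pairs 1 to 4. The pairs come from the sample descriptions. Where a pair is not a separate animal, p-values measure only the spread between samples.

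The members and the lists were chosen with earlier results of these data known. The text names all 9 members with every probe set, Myc, up to 3 called genes of each pathway list in each direction, the 2 nearest profiles of each member and the highest markers. Pathway genes that did not pass, other probe sets and markers named by a small count were chosen after their values were seen. A total of 14 alternatives were tried, covering the scaling, the floor, the filter, the probe sets per gene, the block, the intensity trend and each pair left out. Precision is limited by 4 arrays per group.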

Additional observations from a re-analysis of the deposited data

Results flagged for a closer look

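Within each fraction, 44 sets of 4 values were examined for a sample far from the other 3, and 2 stood out, where chance flags about 1 in 20. The MYC-positive sample of pair 4 had a log2 signal of 10.79 for Fads2 (1419031_at), a signal of 1767.6 where the other 3 MYC-positive samples lay between 2754.0 and 2999.2. The MYC-positive sample of pair 1 had a log2 signal of 3.4 for the dim Acly probe set 1438389_x_at, a signal of 10.53 where the others lay between 52.56 and 64.94.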

How the results depend on the processing

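The main setting called 3 member probe sets higher and 0 lower. Over all probe sets 9.03% were higher. Median centring called 7 members higher (21.8% of all probe sets), leaving out the intensity trend 1 (4.2%) and leaving out the pair block 0 (6.89%), and quantile normalization called 1 lower (Scd1). Counted by gene, 3 were higher, against 5 after median centring and 1 with the mean over probe sets (9.93% of all genes). Without the trend 1 was higher and without the block 0, and quantile normalization called 1 lower. With 1 pair left out, between 0 and 5 member probe sets and between 0 and 5 genes were called higher and 0 lower. The share of all probe sets called higher was then between 1.99% and 12.2%. Calls over all probe sets numbered 4638, against 2340 without the intensity trend and between 884 and 6691 with 1 pair left out. In the pathway lists 10 genes were higher and 8 lower. Median centring gave 39 and 2, leaving out the trend 4 and 4, and leaving out the block 6 higher, and with 1 pair left out there were 1 to 13 higher and 3 to 11 lower. Over all probe sets 1989 were higher and 2649 lower, against 4802 and 1152 after median centring and 924 and 1416 without the trend. Without the block 1518 of all probe sets were higher. With 1 pair left out 439 to 2694 were higher and 445 to 3997 lower. With the mean over probe sets Acss1 was at 0.061 and Scap at -0.27, each with the opposite sign. The share of calls that were higher was 42.9%, against 55.3% after quantile normalization and 80.7% after median centring. The cause of these changes was not tested, except that leaving out a pair removes samples. The tested member probe sets with a mean signal under 100 had the largest SEs, from 0.46 to 0.85 (1 of Acaca, 2 of Acly and 1 of Elovl6).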
